A study of Mus musculus with 16 samples.

Results

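BC018473 is a long noncoding RNA gene on mouse chromosome 11 whose signal in bone marrow stood far apart between 2 groups of mice, and the genes described here are those around it, on chromosome 11 from 115600000 to 117500000 (mouse build mm9), a stretch of 1.9 Mb. The stretch was chosen by measured values of these mice, those of BC018473 and of its neighbour St6galnac2. The other genes in it were taken by position and by signal above background, not by their difference between the groups. The array carried 91 probes with 63 gene names there, St6galnac1 and St6galnac2 left out. Of these, 72 probes were well above background (the scanner software's call) on 6 or more arrays of one group of 8, which left 52 genes of 23060 measured on the whole array. Each gene was read from its brightest probe that passed.

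Total RNA of bone marrow was measured on 1-colour Agilent arrays, 1 array for each of 16 mice. The KO chimeras (8 mice) were C57BL/6J mice, lethally irradiated with 950 rad. They were given whole marrow from mice with a pair of adrenergic receptor genes knocked out, of which only Adrb1 (allele Adrb1tm1Bkk) is named here. The marrow was given by a single retro-orbital injection, at a stated ratio of 1:4 of knockout to C57BL/6J. The chimeras recovered for 2 to 3 months. The controls (8 mice) were control C57BL/6J mice labelled with the same irradiation, with no donor named. Irradiation kills blood-forming cells and spares much of the stroma and vessels, so marrow of a chimera holds host cells too. Receptor loss, the donors' other DNA and the graft cannot be told apart in this comparison. Ages were not given. A p-value for a difference between the groups sets it against the spread between these mice. Spread between marrow donors was not measured separately.

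Long noncoding RNAs are transcribed by the same polymerase as messenger RNAs but are not translated, and some are known to act on genes next to them. Genes side by side on a chromosome can share promoters or enhancers and can also be read quite independently. The genes around BC018473 include many used by most cells, with roles in splicing, chromatin, ubiquitin transfer, secretion and cell adhesion. Of the 52, 44 were matched to the RefSeq reference table (43 by accession and 1 by symbol), 40 as protein-coding and 3 as long noncoding RNAs, and 8 were not matched.

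The sequences below are the 60-base probes of BC018473 and of Gm11735, the gene directly before it in the reference table. In the main run this pair carried the largest differences of the 52 genes. For Gm11735 that rank was lost with another background correction, as given below. Both are written 5′ to 3′ on the strand of the transcript and come from the array files. The BC018473 probe lies at chr11:116619134-116619193 on the plus strand and the Gm11735 probe at chr11:116600001-116600060 on the minus strand (mm9), 19 kb apart. The reference table lists no gene between the pair, and their probes read opposite strands.
BC018473: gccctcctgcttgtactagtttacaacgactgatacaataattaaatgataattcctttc
Gm11735: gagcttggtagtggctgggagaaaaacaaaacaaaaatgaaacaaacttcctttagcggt

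All levels below are log2 of the spot intensity over the 75th percentile of its array, and a difference is the KO chimera mean minus the control mean on that scale, with the standard error (SE) of a linear model (limma) fitted over all 23060 genes. A gene was called higher or lower where the Benjamini-Hochberg adjusted p of limma over all of them was under 0.05. A level is set only against the same gene's level in other mice, since probes differ in brightness.

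BC018473 ran from 3.75 to 4.63 in KO chimeras (median 4.35, 8 mice), against -1.92 to -1.23 in controls (median -1.41, 7 mice). Every KO chimera was far above every control. The eighth control's spot was flagged as an outlier by the scanner software and was left out. The difference was 5.71 ± 0.14 (SE), a ratio of 52.4, and as this gene placed the stretch it is given with no test. BC018473 was above background on all 16 arrays, so the ratio is between measured levels in both groups.

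Of the sialyltransferase pair left out of the list, St6galnac2 (probe at chr11:116538040-116538094) differed by 6.48 with 8 KO chimera and 2 control arrays above background, and the probes of St6galnac1, which lies just after BC018473, differed by 0.11 and 0.97. These enzymes add sialic acid to sugar chains of glycoproteins. St6galnac2 and BC018473 thus lay on either side of Gm11735 in the array's map.

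Of the 52 genes, 17 were called, 8 higher and 9 lower in KO chimeras, or 32.7%, where 22.3% of all genes measured were called, 10.2% higher and 12.1% lower. Without BC018473 it was 16 of 51, or 31.4%, and without Gm11735 as well, which passed the filter only through the KO chimeras, it was 15 of 50 (6 higher, 9 lower), or 30%. Quantile normalization and the authors' values each gave 10 higher and 7 lower, and normexp background correction 9 higher and 5 lower. The KO chimera and control values did not overlap for 7 of the 52, 5 higher (H3f3b, Cygb, Gm11735, BC018473 and Mxra7) and 2 lower (Smim5 and Mettl23), where 6.14% of all genes had groups that did not overlap. Without BC018473, which placed the stretch, the count was 6 of 51 (4 higher, 2 lower). Those 6 still hold Gm11735, whose lack of overlap is partly fixed by the filter. The median difference of the 52 was 0.02 and that of all genes -0.02. The median size of the difference was 0.24 in the stretch and 0.19 over all genes.

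**Figure D1:**
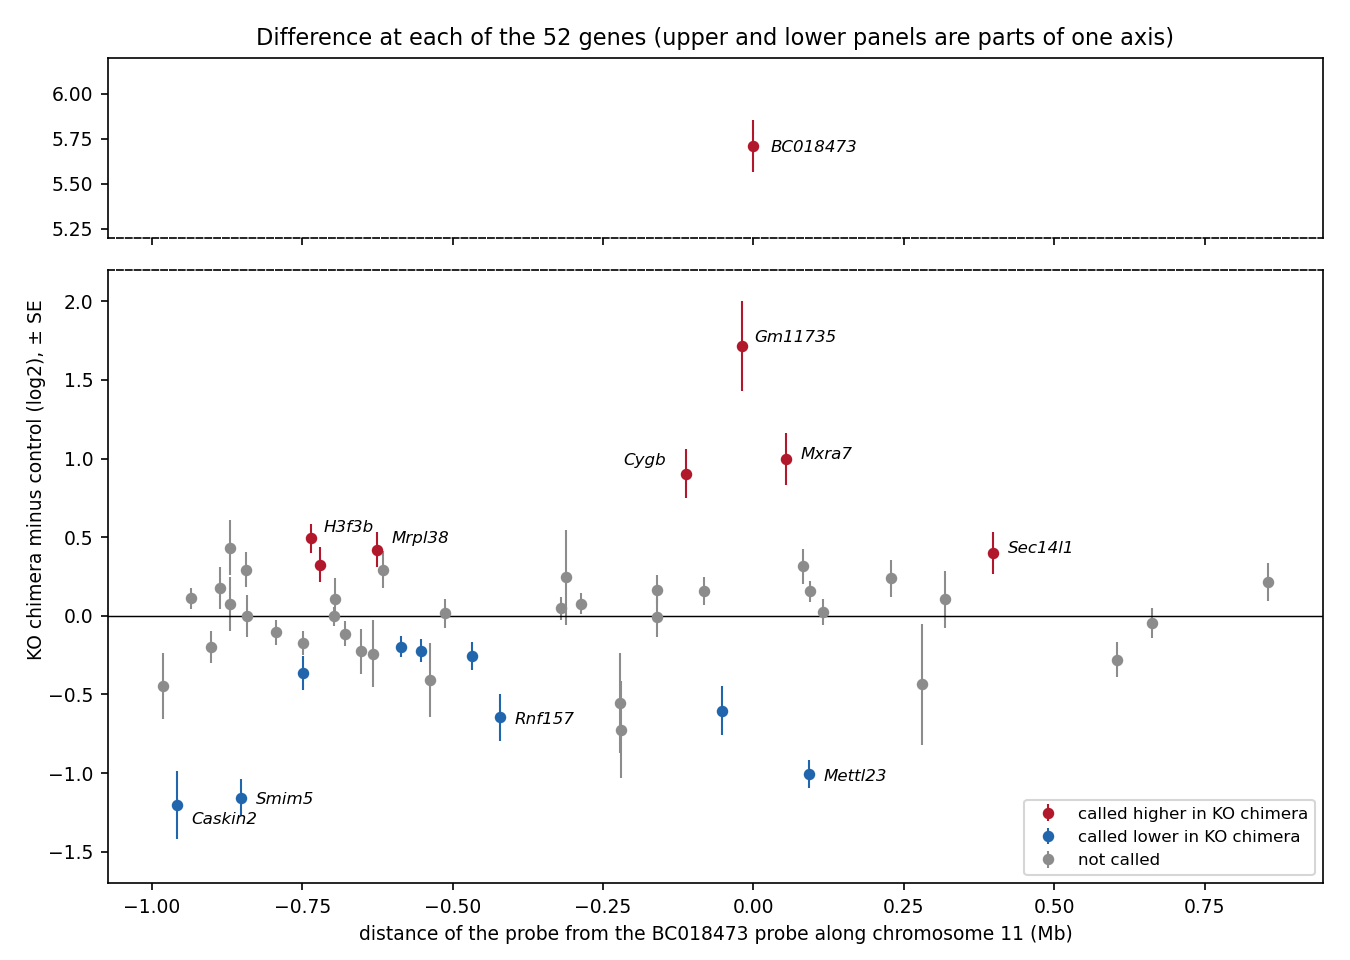
KO chimera minus control difference (log2, vertical axis in 2 panels with a gap) of each of the 52 genes against the distance of its probe from the BC018473 probe (Mb, horizontal axis). Points are genes, bars are SE, red and blue are genes called higher and lower in KO chimeras and grey are genes not called; BC018473 stands at 5.71 and the next highest, Gm11735, at 1.72, while genes called higher and called lower lie on both sides of it.

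Gm11735, annotated in the reference table as an RNA gene of no stated class, is described with no test, because its probe was above background on 8 KO chimera arrays and on 5 control arrays and so passed the filter only through the group where it is high. It ran from -3.65 to -2.30 in KO chimeras (median -2.86), against -5.71 to -3.78 in controls (median -4.44). The groups did not overlap. The difference was 1.72 ± 0.29 (n = 8 mice per group), and it is partly fixed by the filter. Between the scan days, each with 4 mice of either group, it was 2.23 on day 1 and 1.20 on day 2. With another background correction (normexp with an offset of 50, then quantile normalization), which holds dim signals closer together, it was 0.43. Differences of larger size in that run included Smim5 at -1.09 and Mettl23 at -0.91. As a gauge for dim signals, the 11637 probes above background on no array had a median difference of 0.44, and the 10 of them in the stretch 0.50. The 4437 genes that passed the filter with a mean level under -3, as Gm11735 and Mxra7 have, had a median of -0.05.

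On the far side of BC018473, Mxra7, named for its association with matrix remodelling, was also higher in KO chimeras. It ran from -3.34 to -2.41 in KO chimeras (median -3.01), against -4.72 to -3.61 in controls (median -3.82), again with no overlap. The difference was 1.00 ± 0.17 (limma adjusted p = 0.000323), with 8 KO chimera and 7 control arrays above background. Another Mxra7 probe was above background on 0 KO chimera and 0 control arrays, and still differed by 0.78 at background level. The Mxra7 difference of 1.00 thus rests on a single dim probe, and the part of a shift near background in it was not tested. This difference too was smaller with normexp, at 0.30 (limma adjusted p = 0.00111), and was 1.28 on scan day 1 and 0.72 on scan day 2.

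Cygb encodes cytoglobin, a haem protein of the globin family that binds oxygen and acts on nitric oxide, known from fibroblast-like cells. Its probe lies 112 kb before that of BC018473. Cygb ran from -2.52 to -1.23 in KO chimeras (median -2.15), against -3.24 to -2.59 in controls (median -3.0). All KO chimeras were above all controls, and the probe was above background on all 16 arrays. The difference was 0.90 ± 0.16 (limma adjusted p = 0.000426), and 0.46 with normexp (limma adjusted p = 0.00312). Markers of stromal and endothelial cells, kept as one mixed list, were called higher for 1 (Cxcl12) and lower for 1 (Cdh5) of 6 genes. Their summed level was 20.8 to 26.3 in KO chimeras and 14 to 27.6 in controls. The part of stroma in the Cygb difference was not tested.

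Mettl23, a protein methyltransferase gene 92 kb after BC018473, went the other way and had the smallest adjusted p of the genes called lower. It ran from 0.93 to 1.59 in KO chimeras (median 1.20), against 2.11 to 2.41 in controls (median 2.19). The highest KO chimera was below the lowest control. The difference was -1.01 ± 0.09 (limma adjusted p = 2.82e-07), a ratio of 0.497, and it was -1.08 on scan day 1 and -0.94 on scan day 2.

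Mettl23 and Jmjd6 start next to each other on opposite strands, and the stretch between their start sites is shown because the differences of the pair had opposite signs. It comes from the RefSeq promoter table (GRCm38.p6), chr11:116843450-116843514, 65 bases on the plus strand. Capitals mark CCAAT and its reverse complement ATTGG, which overlap here, and both strands were searched. Of 32851 promoter windows in that table, 12% held CCAAT on either strand in the same 65-base part. The stretch is 67.7% G and C, where the median of the same part over all windows is 55.4%, and holds 7 CG pairs, where the median is 2.
Jmjd6 to Mettl23: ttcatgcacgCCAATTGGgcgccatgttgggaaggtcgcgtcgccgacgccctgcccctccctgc

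Jmjd6, an iron-dependent dioxygenase that acts on histones and on splicing factors, ran from 0.50 to 1.15 in KO chimeras (median 0.80), against 0.13 to 0.74 in controls (median 0.58). The groups overlapped, and the difference of 0.31 ± 0.11 was just outside the call (limma adjusted p = 0.0504). It was called without KO chimera 7 or 8 or control 4 or 8, with an adjusted p in limma as low as 0.0289. The gap between Mettl23 and Jmjd6 within a mouse was 0.41 ± 0.30 in KO chimeras and 1.73 ± 0.23 in controls (mean and SD of log2 Mettl23 minus log2 Jmjd6, n = 8 each). This pair was picked for these values and is given as a description with no test, and Mettl23 by itself already separates the groups.

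The other neighbours next to BC018473 did not pass the test. Srsf2, a splicing factor of the SR family, differed by 0.15 ± 0.07 (limma adjusted p = 0.113), and Mfsd11, a predicted membrane transporter, by 0.03 ± 0.08 (limma adjusted p = 0.862). Rhbdf2, which encodes iRhom2, a partner of the protease that sheds TNF, differed by 0.17 ± 0.09 (limma adjusted p = 0.228). The gene 1810032O08Rik, now Snhg16, a noncoding host of small nucleolar RNAs, differed by 0.16 ± 0.09 (limma adjusted p = 0.219). Genes called in both directions lay between them.

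**Figure D2:**
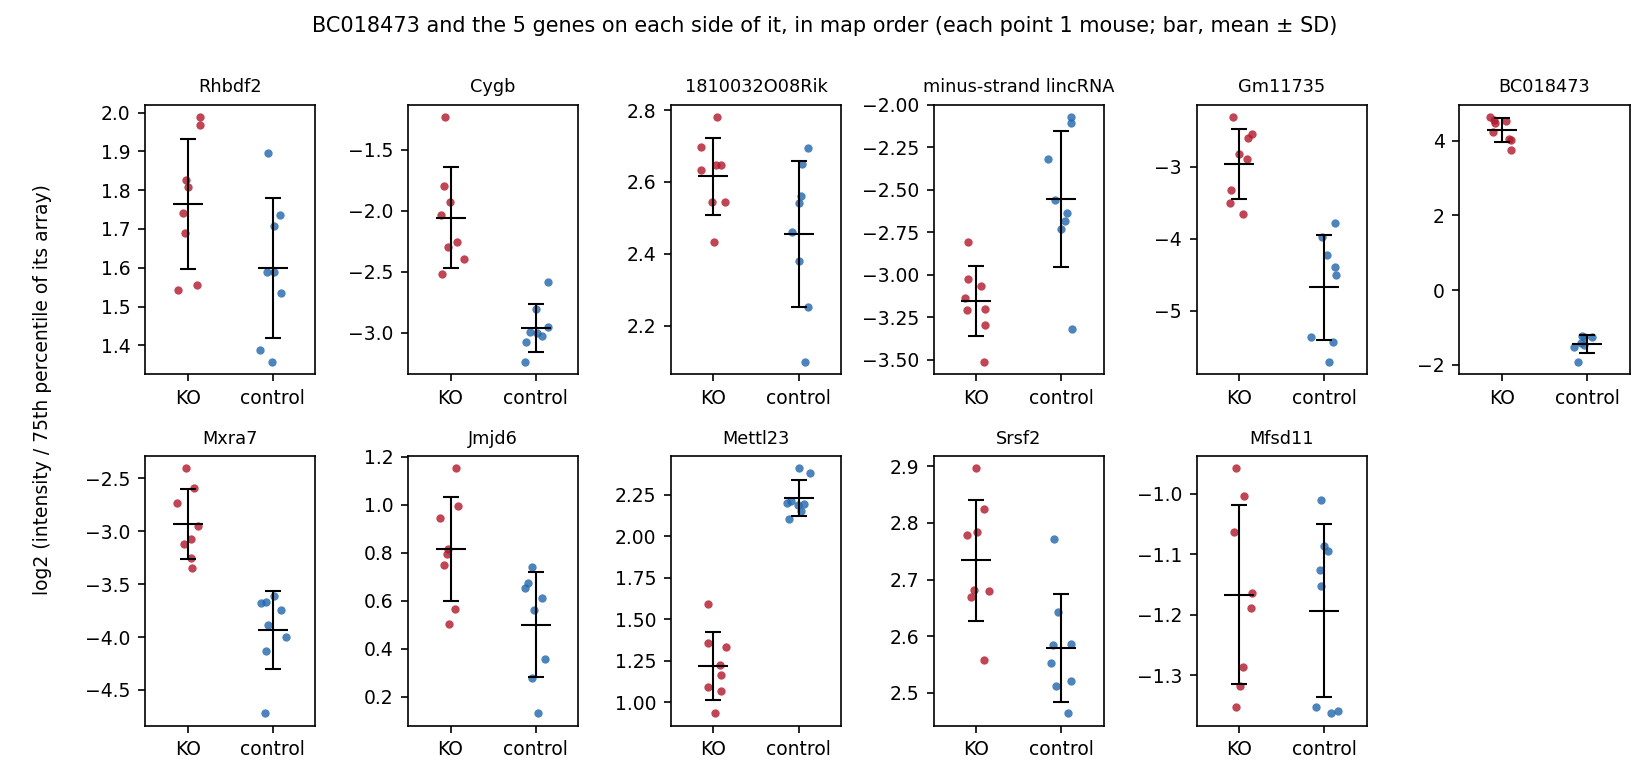
Level of BC018473 and of the 5 genes on each side of it in every mouse (log2 of intensity over the array's 75th percentile, vertical axes differ), KO chimeras at left and controls at right, with mean and SD. Cygb, Gm11735, BC018473 and Mxra7 are higher in every KO chimera than in any control, Mettl23 is lower in every one, and the others overlap.

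Between Snhg16 and Gm11735 the array probes a long intergenic RNA on both strands at nearly the same place. The probes are printed because only the minus-strand one gave signal. They lie at chr11:116565959-116566018 (minus strand) and chr11:116565961-116566020 (plus strand) of mm9, and the capitals mark the 58 bases they share, as reverse complements of each other.
minus-strand lincRNA: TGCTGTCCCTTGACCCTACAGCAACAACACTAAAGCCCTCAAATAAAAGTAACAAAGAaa
plus-strand lincRNA: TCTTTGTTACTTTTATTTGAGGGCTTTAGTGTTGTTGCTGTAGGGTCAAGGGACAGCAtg

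The minus-strand RNA ran from -3.51 to -2.81 in KO chimeras (median -3.17), against -3.32 to -2.07 in controls (median -2.60). It was lower in KO chimeras with overlap at 1 control, by -0.60 ± 0.15 (limma adjusted p = 0.0089), and by -0.24 with normexp (limma adjusted p = 0.0231). It was above background on 7 KO chimera and 8 control arrays, and the plus-strand probe on 0 of 16. The call for this RNA was made on the minus-strand probe alone. The plus-strand probe gave no signal to set beside it, so a difference between the strands was not tested.

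Farther out, the largest falls lay near the start of the stretch, 958 kb and 852 kb before BC018473. Caskin2, named for binding the scaffold protein CASK, ran from -2.92 to -1.23 in KO chimeras (median -1.81), against -1.51 to -0.31 in controls (median -0.59). Control 5 was the only control inside the range of the KO chimeras. The difference was -1.21 ± 0.22 (limma adjusted p = 0.000626), and -0.76 with normexp (limma adjusted p = 7.62e-05).

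Smim5, a small integral membrane protein gene, ran from 0.84 to 1.5 in KO chimeras (median 1.1), against 2.10 to 2.59 in controls (median 2.37). All KO chimeras were below all controls, and the difference was -1.16 ± 0.12 (limma adjusted p = 1.35e-06). Smim6, the small membrane protein gene next to it, ran from 0.74 to 1.37 in KO chimeras (median 0.90), against 0.29 to 0.97 in controls (median 0.63). It was not called (0.29 ± 0.11, limma adjusted p = 0.0743). In 4 of 29 alternative runs it was called higher. These were without control 5 (0.34, limma adjusted p = 0.0432), quantile normalization (limma adjusted p = 0.0475), normexp (limma adjusted p = 0.0302) and the authors' values (limma adjusted p = 0.0464). The Smim5 and Smim6 probes lie 7817 bases apart on one strand. The gap between them within a mouse was 0.26 ± 0.29 in KO chimeras and 1.71 ± 0.17 in controls (SD, n = 8 each), another pair picked for its values and given with no test. Smim5 by itself already separates the groups.

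H3f3b, which encodes the replacement histone H3.3, was called higher on 3 probes of one gene. Its brightest probe ran from 7.71 to 8.20 in KO chimeras (median 7.83), against 7.16 to 7.65 in controls (median 7.44), without overlap. The difference was 0.49 ± 0.09 (limma adjusted p = 0.000747), and the other probes differed by 0.51 and 0.58. Close copies of this gene exist elsewhere in the genome and may share signal at these probes.

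Rnf157, a RING-type ubiquitin ligase gene, ran from -2.77 to -1.65 in KO chimeras (median -2.39), against -2.16 to -1.43 in controls (median -1.60). The groups overlapped, and the difference was -0.65 ± 0.15 (limma adjusted p = 0.00512), with -0.35 under normexp (limma adjusted p = 0.00922). A second probe elsewhere in the gene differed by -0.86. Mrpl38, of the large subunit of the mitochondrial ribosome, ran from 0.29 to 0.79 in KO chimeras (median 0.55), against -0.12 to 0.60 in controls (median 0.06). Its difference was 0.42 ± 0.11 (limma adjusted p = 0.00974). Itgb4, the integrin beta 4 subunit of epithelial anchorage, ran from -3.38 to -2.87 in KO chimeras (median -3.11), against -3.04 to -2.43 in controls (median -2.74). Its difference was -0.36 ± 0.11 (limma adjusted p = 0.0191), and its call was lost with normexp, at -0.14 (limma adjusted p = 0.0855).

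Another 4 calls were lost when single mice were left out. Sec14l1, of the Sec14 lipid-transfer family, was higher by 0.40 ± 0.13 (limma adjusted p = 0.0378), and the transcript AK138827 by 0.33 ± 0.11 (limma adjusted p = 0.0425). Exoc7, a subunit of the exocyst that tethers secretory vesicles, was lower by -0.25 ± 0.09 (limma adjusted p = 0.0469), and Ten1, of the CST complex at telomeres, by -0.22 ± 0.07 (limma adjusted p = 0.0375). With 1 of the 16 mice left out in turn, the limma adjusted p reached 0.0768 for Sec14l1, 0.0836 for AK138827, 0.0956 for Exoc7 and 0.0775 for Ten1. The call of Ten1 was lost without KO chimera 1, 2, 3 or 5 or control 1, 2, 4, 5, 6 or 7. The call of Exoc7 was lost without KO chimera 2, 3, 4, 5, 7 or 8 or control 4, 5, 6, 7 or 8. That of AK138827 was lost without KO chimera 1, 2, 3, 5 or 8 or control 1, 3, 5, 6, 7 or 8, and that of Sec14l1 without KO chimera 1, 3, 4 or 6 or control 1, 2, 3, 4 or 5. All 16 refits of each of these 4 genes kept its direction.

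**Figure D3:**
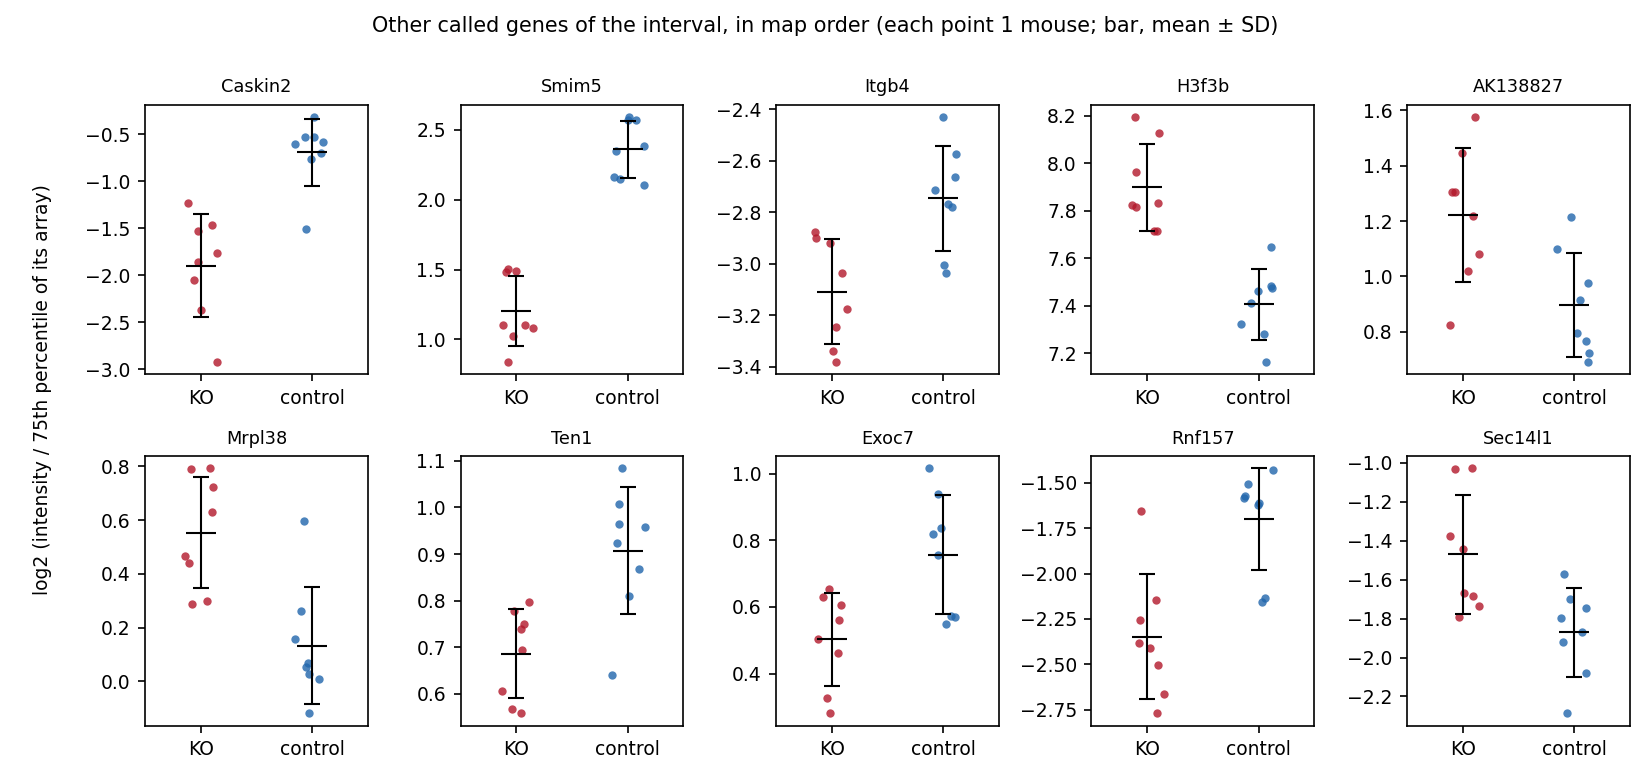
Level of 10 called genes that are not among the nearest neighbours of BC018473, in every mouse (log2 of intensity over the array's 75th percentile, vertical axes differ), KO chimeras at left and controls at right, with mean and SD. Smim5 and H3f3b have no overlap between the groups, and the other 8 overlap.

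By role, each of the 4 larger groups of genes had calls in both directions, and their counts are read beside the 22.3% called over all genes. Of 9 genes for RNA, chromatin and nuclear proteins, 1 was called higher (H3f3b) and 2 lower (Mettl23 and Ten1), and the median difference of the 9 was 0.00. Unk, a zinc finger RNA-binding protein, differed by 0.00 ± 0.06 (limma adjusted p = 0.979), and Tsen54, of the endonuclease that removes introns from tRNAs, differed by 0.11 ± 0.07 at its brightest probe (limma adjusted p = 0.273). In a test per probe the second Tsen54 probe was called higher, at 0.36 ± 0.10 (limma adjusted p = 0.0166), and so was the mean of both probes, at 0.24 (limma adjusted p = 0.0399). Of 8 metabolic and mitochondrial genes, 2 were called higher (Cygb and Mrpl38) and 1 lower, with a median of 0.03. Prpsap1, which associates with the enzyme that makes phosphoribosyl pyrophosphate for nucleotides, differed by 0.08 ± 0.07 (limma adjusted p = 0.471).

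Of 11 genes for ubiquitin transfer, trafficking and secretion, 1 was called higher (Sec14l1) and 2 lower (Rnf157 and Exoc7), with a median of -0.11. Ubald2, in the same group, differed by 0.05 ± 0.07 (limma adjusted p = 0.691). Of 8 genes for cytoskeleton, adhesion and matrix, 1 was called higher (Mxra7) and 2 lower (Caskin2 and Itgb4), with a median of -0.24. Neither of 2 membrane proteins passed the test, and 14 genes had no role group. The median over all genes measured, for comparison, was -0.02. On the minus strand 10 of 28 genes were called and on the plus strand 7 of 24, beside 22.3% of all genes. The plus-strand count holds BC018473, which placed the stretch, and the minus-strand count holds Gm11735, which the filter partly fixes. The strand counts are therefore a description and were not tested.

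With distance from BC018473, the median size of the difference was highest among the nearest genes, although Caskin2 and Smim5, which fell most, lie far from it. Within 0.1 Mb of it, 4 of 7 genes were called, where 22.3% of all genes were, with a median size of 0.60. From 0.1 to 0.25 Mb it was 1 of 7 and 0.24, from 0.25 to 0.5 Mb 3 of 8 and 0.25, and at 0.5 Mb and over 8 of 29 and 0.22, against 0.19 for all genes. The calls within 0.1 Mb were 2 higher (Gm11735 and Mxra7) and 2 lower (Mettl23 and the minus-strand lincRNA), so nearness did not go with one direction. Without Gm11735 it was 3 of 6 and a median size of 0.46. With normexp, added for the ranges of distance after seeing the data, the median size was 0.30 within 0.1 Mb, then 0.21, 0.11 and 0.14 with distance, and 0.13 over all genes. These counts are a description over 7 genes and were not tested.

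**Figure D4:**
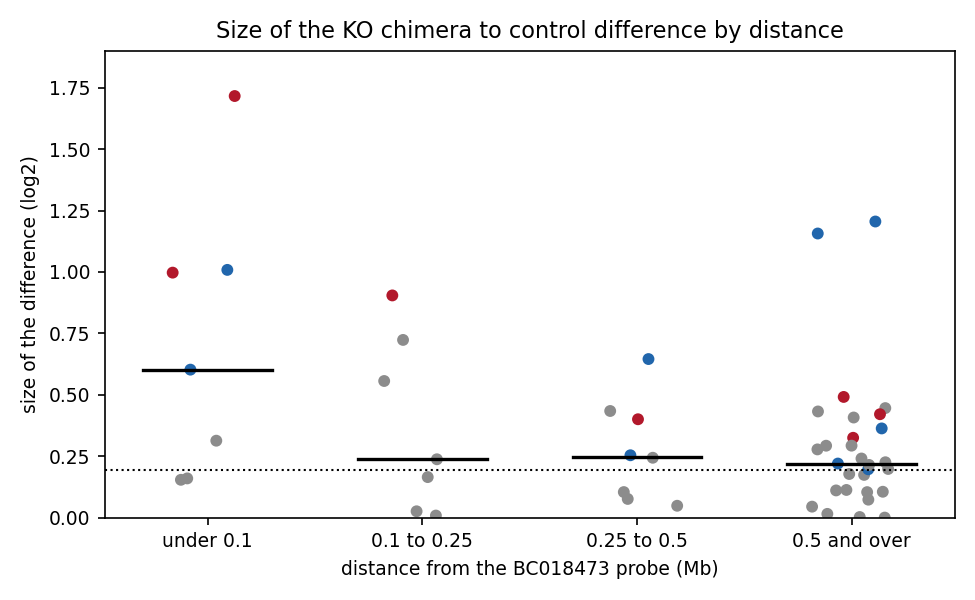
Size of the KO chimera to control difference (log2, without sign) of 51 genes in 4 ranges of distance from the BC018473 probe (Mb). Points are genes (red called higher, blue called lower, grey not called), bars are medians and the dotted line is the median over all genes, 0.19; the median is 0.60 under 0.1 Mb and between 0.22 and 0.25 beyond.

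The stretches of the same length on either side were set against this one. Before it, 12 of 42 genes were called (28.6%), and after it 9 of 43 (20.9%), with 23% of 1523 genes on the rest of chromosome 11. The largest fall before it was Cd300ld, a myeloid receptor gene, at -1.26 ± 0.11 (limma adjusted p = 3.26e-07). The largest rise there was D930050J11 at 0.51 ± 0.17 (limma adjusted p = 0.0458). After it the largest fall was Lgals3bp, a secreted galectin-binding protein, at -1.23 ± 0.19 (limma adjusted p = 0.000189). The largest rise there was Socs3, a feedback inhibitor of cytokine signalling, at 0.76 ± 0.18 (limma adjusted p = 0.00508). Differences over 1 in size were found for 2 of 42 genes before it and 2 of 43 after it, beside 5.29% of all genes. The genes just outside the limits were D930050J11 before and Tnrc6c after, Tnrc6c at 0.04 ± 0.11, and just inside them 2310067B10Rik (now Tmem94) at -0.45 ± 0.21 and 2900041M22Rik at 0.22 ± 0.12.

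The 11 names that did not pass the filter were B230344G16Rik, Cdk3-ps, Galr2, Foxj1, Gm11744, TC1629580, TC1602377, 2810008D09Rik, ENSMUST00000092394, an unnamed probe and the plus-strand lincRNA. The best of them, ENSMUST00000092394, was above background on 4 KO chimera and 4 control arrays, and Qrich2, just inside the filter, on 6 and 6 (difference 0.24 ± 0.30). Of the 52 that passed, 43 were above background on all 16 arrays. Among them, 3 passed with fewer than 6 arrays in one group, namely Gm11735, 2310067B10Rik (5 KO chimera and 8 control arrays, difference -0.45 ± 0.21) and BF468680 (3 and 7 arrays, -0.43 ± 0.38). Where a gene entered through one group alone, its difference is partly fixed by the filter.

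More than 1 probe passed for 16 genes, which gave 20 pairs of a brightest and another probe. The difference between the groups did not separate the probes of any pair after adjustment (0 of 20, exact two-sided permutation, smallest adjusted p = 0.0684), and 5 pairs had an unadjusted p under 0.05. The widest was Unc13d, which primes cytotoxic granules for release, with 0.11 at its brightest probe and -0.51 at the other (exact permutation p = 0.0339, adjusted p = 0.169). Tsen54 had 0.11 and 0.36 (exact permutation p = 0.00373, adjusted p = 0.0684), and Llgl2, a cell polarity gene, -0.20 and 0.11 (exact permutation p = 0.00684, adjusted p = 0.0684). The probes of Rnf157, Sphk1 and H3f3b pointed the same way.

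**Figure D5:**
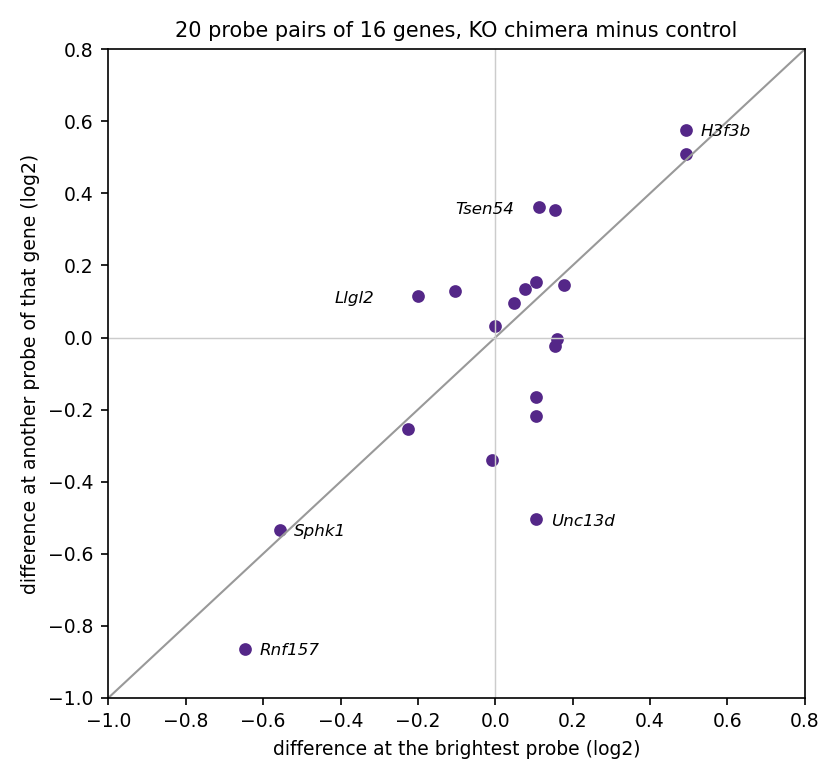
KO chimera minus control difference (log2) at the brightest probe (horizontal axis) and at another probe of the same gene (vertical axis) for 20 pairs in 16 genes. Points on the grey line have equal differences; H3f3b, Rnf157 and Sphk1 lie near it, and Unc13d, at 0.11 and -0.51, lies farthest below it.

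A pair of neighbouring genes 0.22 Mb before BC018473 had some of the widest spreads between mice of one group. Sphk1, which makes the lipid signal sphingosine 1-phosphate and is active in red blood cells, ran from 2.64 to 4.78 in KO chimeras (median 4.32), against 3.27 to 5.11 in controls (median 4.88). Its difference was -0.56 ± 0.32 (limma adjusted p = 0.234). Ube2o, a ubiquitin-conjugating enzyme known in mice to clear proteins from maturing red cells, ran from 2.95 to 5.11 in KO chimeras (median 3.73), against 3.77 to 5.48 in controls (median 4.52). Its difference was -0.72 ± 0.31 (limma adjusted p = 0.106). It was called in 1 of 29 alternative runs, the one without KO chimera 7 (-0.90, limma adjusted p = 0.0296). That mouse had the highest Ube2o level of the KO chimeras. With other single mice left out the limma adjusted p reached 0.195. The median SD of a gene of the stretch was 0.22 in KO chimeras and 0.21 in controls.

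The levels of both genes were set against the erythroid markers within each group, a relation looked for after their spread was seen (4 relations, of which 3 passed an adjusted p under 0.05). Over 8 KO chimeras, the Sphk1 level and the log2 summed level of 5 erythroid markers had Pearson's r = 0.95 (exact permutation p = 0.000744, adjusted p = 0.00298) and Spearman's rho = 0.90 (exact permutation p = 0.00456). Over 8 controls r was 0.89 (exact permutation p = 0.0191, adjusted p = 0.0292) and rho 0.81 (exact permutation p = 0.0218). Without the 2 mice farthest from the median of the markers r was 0.83 in KO chimeras and 0.49 in controls, so that in controls it rests in part on those mice. For Ube2o, r was 0.70 in KO chimeras (exact permutation p = 0.0528, adjusted p = 0.0528), with rho = 0.81 (exact permutation p = 0.0218), and r was 0.75 in controls (exact permutation p = 0.0219, adjusted p = 0.0292), with rho = 0.95 (exact permutation p = 0.00114). Without the 2 farthest mice r was 0.90 in KO chimeras and 0.92 in controls. Each scan day held 4 mice of a group, too few for a value within days.

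The summed level of the 5 erythroid markers was 55.1 to 322 in KO chimeras and 79.9 to 249 in controls, and 0 of the 5 were called. In bulk marrow, fewer cells of a type and less RNA per cell cannot be told apart. Among the other cell types, 7 of 7 neutrophil markers were above background on all 16 arrays and none was called. Over all genes, 10.2% were called higher and 12.1% lower. Megakaryocyte and platelet markers were lower for 4 of 6, with a summed level of 20.5 to 46.7 in KO chimeras and 37.3 to 67.4 in controls. Monocyte markers were higher for 2 of 3, with 48.2 to 93.1 in KO chimeras and 36.4 to 56.9 in controls. T cell markers were higher for 1 and lower for 2 of 6 (24.6 to 44.2 in KO chimeras, 29.5 to 74 in controls), B cell markers higher for 1 of 5 (44.2 to 99.8 and 36.2 to 99.1) and NK cell markers higher for 1 of 4 (24 to 37.4 and 25.4 to 40.8). Their part in the calls of the stretch was not tested.

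All 17 called genes had the same direction on both scan days, as had 27 of the 35 not called. The 17 were called from these same mice, so their shared direction is largely fixed in advance and is no separate check. On day 1 alone 5 were called and on day 2 alone 11, each day with 4 mice per group. The KO chimera nearest to the controls was not one mouse throughout, since no single mouse was nearest for more than 3 of the 17 genes. The arrays' 75th percentiles spanned 127 to 545 for KO chimeras, against 231 to 558 for controls, so the dimmest array was a KO chimera's. Adrb1, on chromosome 19, differed by 0.00 ± 0.105 (limma adjusted p = 0.999), and since the sources used here do not place its probe relative to the deletion, it does not check the genotype.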

How the data were processed

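In the deposited scanner files each spot has a linear intensity from which the scanner software has taken the background. That software was Feature Extraction, version 10.1.1.1 per the file headers; the submitters' processing notes name 10.7. The authors' value table holds log2 values, described as quantile-normalized per the labels; each column correlated with its own array at r of 0.991 or more (with any other at most 0.989), its column medians ran from 4.98 to 5.00, and the sources used here do not give its centring. It was used as an alternative. Positions are those of the files (mm9); RefSeq (GRCm38.p6) gave names and the promoter sequence, and exons and UTRs were not annotated here.

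For every array, log2 of the processed signal over its 75th percentile (control spots left out) was taken. Outlier spots were left out, spots of a probe averaged, and probes kept when well above background on at least 6 of 8 arrays of either group (32693 of 55681 probes). The brightest kept probe stood for a name, with at least 3 values per group. Limma 3.58.1 in R 4.3.3 (lmFit, eBayes, two-sided) was fitted to all 23060 names and was tested on simulated data. Single contrasts used exact permutation over mice.

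The members, role groups and tests were chosen with earlier results of these data known. Named genes were BC018473, 5 on each side, up to 12 called rises and 12 called falls, members above background on fewer than 6 arrays of a group, the 5 uncalled with the smallest SE and the extremes of each flank; Smim6, Sphk1, Ube2o, Unc13d, Llgl2, Qrich2 and the names next to the limits were added after seeing values. Of the genes the rule names, 1 is counted but not reported here. Arrays lay on 6 slides (5 with both groups) and 2 scan days. The labels give each array as a separate mouse; same-numbered mice did not deviate together. The number of mice limits precision.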

Additional observations from a re-analysis of the deposited data

Results flagged for a closer look

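Of 104 sets of values (52 genes in 2 groups), 12 in 11 genes had 1 mouse far from the rest of its group by Dixon's test; chance alone flags about 1 in 20 groups. In KO chimeras, BF468680 had its highest value, -2.12, in mouse 7 (the next at -4.09), and Llgl2 its lowest, -0.89, in mouse 3 (the next at -0.44). In controls, the lowest value stood apart for Caskin2 (-1.51 in mouse 5, the next at -0.76), Sphk1 (3.27 in mouse 5, the next at 4.28), Trim65 (-4.09 in mouse 2, the next at -3.47), Evpl (-1.80 in mouse 2, the next at -1.55), BC018473 (-1.92 in mouse 4, the next at -1.52), Mxra7 (-4.72 in mouse 4, the next at -4.14), 2310067B10Rik (-4.46 in mouse 8, the next at -3.48) and BF468680 (-4.87 in mouse 8, the next at -4.20). The highest control stood apart for Mgat5b (1.05 in mouse 8, the next at 0.45) and ENSMUST00000093911 (-2.05 in mouse 7, the next at -2.60). Without control 8, Mgat5b was called higher in KO chimeras (0.34, limma adjusted p = 0.00636). 2310067B10Rik and BF468680 passed the filter only through the controls, so no test of theirs is given. No cause was tested.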

How the results depend on the processing

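Of the 16 called genes besides BC018473, 3 (Mxra7, Mettl23 and Smim5) were called under every alternative run (Gm11735, which the filter partly fixes, is not counted), 6 lost the call only on scan day 1 alone, and no called gene changed direction. Of 17 calls (8 higher, 9 lower), 5 (3 higher, 2 lower) were left on scan day 1 alone, 11 (5 lower) on scan day 2 alone, both with fewer mice, 11 (5 lower) at an adjusted p under 0.01, and 14 (9 higher, 5 lower) with normexp. Quantile normalization and the authors' values gave 10 higher and 7 lower. Leaving out 1 mouse gave 12 to 19 calls, 6 to 10 higher and 6 to 9 lower. BC018473 differed by 5.11 with normexp, by 5.28 ± 0.42 in the authors' values, which keep the outlier spot of control 8, and by 5.63 to 5.79 with 1 mouse left out. With the replicate block, 13 were called (7 higher, 6 lower); same-numbered mice deviated together at r = -0.19 to 0.20, and 1 of 8 KO chimeras matched best with its own number, so the numbers are not taken as pairs. Jmjd6 was called under 11 of 29 alternatives. In 0.2 Mb windows, the median size beside BC018473 was 0.66, with Gm11735 counted, which the filter partly fixes. No window value without Gm11735 was computed, and within 0.1 Mb the median size without it was 0.46. With normexp, added after seeing the data, the median size within 0.1 Mb was 0.30, Gm11735 again counted. Among 20 probe pairs, 0 passed with either normalization.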
